A study of Homo sapiens with 74 samples.

Results

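The genes of U1 small nuclear RNA (snRNA), the RNA core of the particle that marks the 5′ ends of introns for splicing, were examined in Cut&Run data of zinc finger proteins (ZFPs). The 8 genes were RNU1-1, RNU1-2, RNU1-3, RNU1-4, RNU1-27P, RNU1-28P, RNVU1-7 and RNVU1-18, of 62700 genes in the annotation (GENCODE 44, hg38). A peak was assigned to a gene when it overlapped the gene or lay within 500 bp of it, which selected 183 of 92122 peaks. In Cut&Run an antibody directs micrococcal nuclease to a protein on chromatin, so that the DNA near the protein is cut out and sequenced.

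HEK293T cells, a human embryonic kidney line, were transfected for 48 h with a plasmid that expressed 1 ZFP with a C-terminal V5 tag under an EF1-alpha promoter, and the V5 antibody was used for the pull-down. Peak lists were available for 36 ZFPs with 2 replicates each, 72 lists in all, and each replicate came from its own culture well. Not all of these ZFPs have a Cut&Run entry in the summary table of the study, as named further on. Untransfected cells treated with the same antibody (V5 mock IP, 2 samples) were the control. The authors called the peaks of each library against the mock IP of the same batch, so the lists of a batch share a control, and no peak list of the mock IP itself was used here.

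U1 snRNA is packed with the Sm ring and the proteins U1-70K, U1-A and U1-C into the U1 particle, whose RNA pairs through its 5′ end with the 5′ splice site. The same particle also keeps transcripts from being cleaved and polyadenylated too early within introns. U1 genes are short and intronless, are transcribed by RNA polymerase II from a promoter recognized by the SNAPc complex, and are present in many copies and pseudogenes.

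The sequence of the copies decides how far a peak can be tied to any single gene, so it is shown first. In hg38, 7 of the 8 genes carried the same 164 bases, and RNVU1-7 differed from them only by T150C (RNU1-1 base, position counted from 1 at the gene start, RNVU1-7 base). The sequence common to the 7 genes is printed in the direction of transcription, with capitals for the stretch that pairs with the 5′ splice site (bases 3 to 10) and for the Sm site (bases 125 to 133).
U1, 7 genes: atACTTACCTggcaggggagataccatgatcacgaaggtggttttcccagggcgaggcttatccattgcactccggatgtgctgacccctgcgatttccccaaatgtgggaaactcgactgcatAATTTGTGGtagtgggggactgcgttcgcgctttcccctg
For RNVU1-7 the capital marks the substituted base.
RNVU1-7: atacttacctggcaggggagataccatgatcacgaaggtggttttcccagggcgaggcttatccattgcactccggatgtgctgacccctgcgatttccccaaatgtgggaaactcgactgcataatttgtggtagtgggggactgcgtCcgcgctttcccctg
A search of the whole assembly found the 164 bases 8 times on the primary chromosomes, at the 7 genes and at RNVU1-29, and once on an unlocalized contig of chromosome 1. A read that lies wholly inside the gene could therefore come from any of these copies. The sources used here do not say how the alignment chose among equal positions.

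Outside the transcribed bases the copies were less alike, except in pairs. RNU1-1 lies on the minus strand at chr1:16514122-16514285, RNU1-2 on the plus strand at chr1:16895980-16896143, RNU1-3 on the minus strand at chr1:16666785-16666948 and RNU1-4 on the plus strand at chr1:16740516-16740679. The annotation places RNU1-2 and RNU1-4 inside introns of CROCC, which encodes a ciliary rootlet protein, on the same strand, and RNU1-3 and RNU1-4 each overlap an exon of a lncRNA on the opposite strand. RNU1-27P (plus strand, chr14:34546714-34546877) and RNU1-28P (minus strand, chr14:34556226-34556389) overlap no other gene and, despite the P of their names, are annotated as snRNA genes. RNVU1-7 (chr1:148038753-148038916) and RNVU1-18 (chr1:143729407-143729570) lie on the minus strand with no other gene within 500 bp. The 250 bases before the start of RNU1-1 were 95.6 to 96.4% identical to those of RNU1-2, RNU1-3 and RNU1-4, 85.8% to those of RNVU1-7, 75.6% to those of RNVU1-18 and 58.8% to those of RNU1-27P and RNU1-28P. RNU1-3 and RNU1-4 were identical over 250 bases on both sides (100%), and so were RNU1-27P and RNU1-28P (100%), so each of these pairs differs by strand and position and not by nearby sequence. The promoters of RNU1-4 and RNU1-27P, 250 bases before to 50 bases after the start, stand here for the families with unlike flanks. Capitals mark the letters ATGNAGAT, searched on both strands after the sequences were seen.
RNU1-4, chr1:16740266-16740565, plus strand: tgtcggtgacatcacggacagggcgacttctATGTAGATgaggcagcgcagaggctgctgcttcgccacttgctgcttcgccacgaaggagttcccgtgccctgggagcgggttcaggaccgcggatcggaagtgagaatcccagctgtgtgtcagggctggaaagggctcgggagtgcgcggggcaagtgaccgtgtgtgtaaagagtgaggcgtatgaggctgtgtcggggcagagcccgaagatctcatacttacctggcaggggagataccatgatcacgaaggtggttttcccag
RNU1-27P, chr14:34546464-34546763, plus strand: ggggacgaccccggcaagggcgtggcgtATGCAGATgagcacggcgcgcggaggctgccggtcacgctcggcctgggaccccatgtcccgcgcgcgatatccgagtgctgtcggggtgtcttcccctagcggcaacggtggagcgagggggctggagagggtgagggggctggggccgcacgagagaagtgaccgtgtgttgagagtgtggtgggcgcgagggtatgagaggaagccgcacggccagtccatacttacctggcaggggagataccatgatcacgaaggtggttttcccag
These letters occurred in 8 of 8 U1 promoters, with their first base 218 to 239 bases before the start, and in 2.75% of 35116 RefSeq promoters (GRCh38.p14) of the same window. The 2 shares give no test of enrichment. The letters were chosen with the U1 promoters in view, and several of these promoters are near copies of one another. The octamer ATGCAAAT, the site of OCT1, was found on neither strand in any of the 8 promoters and occurred in 1.77% of the RefSeq promoters.

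Peaks at U1 genes were present for most of the ZFPs. At least 1 of the 8 genes had a peak in 39 of 72 lists and for 25 of 36 ZFPs, and 14 ZFPs (11 of the other group and 3 of the splicing-related group defined further on) had one in both replicates. RNU1-2 had a peak in 30 lists (18 ZFPs), RNU1-27P in 29 (17 ZFPs), RNU1-4 in 28 (18 ZFPs) and RNU1-28P in 24 (17 ZFPs). RNU1-1 and RNVU1-18 had a peak in 20 lists each (15 ZFPs each), RNU1-3 in 18 (13 ZFPs) and RNVU1-7 in 13 (10 ZFPs). All 8 genes thus had a peak for at least 10 ZFPs, which held for 1.67% of all genes and for 0.776% of the genes of 100 to 250 bp. Lists with a U1 peak were longer, with a median of 945 peaks (141 to 8702) against 459 (15 to 2191) in the 33 lists without one, and the part of list length in these counts was not tested.

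The replicates often disagreed on presence. The labels give the replicate number no meaning across ZFPs, so the counts by replicate only describe the lists as numbered. Among the first replicates 23 of 36 lists had a U1 peak and 7 had peaks at all 8 genes, and among the second replicates 16 had a U1 peak and 4 had all 8. RNU1-1 was found in 15 first and 5 second replicates, RNU1-3 in 13 and 5, and RNU1-2 in 17 and 13. Where both lists of a ZFP held a peak with its summit inside a gene, which was the case for 57 pairs of gene and ZFP, the higher fold was a median of 1.49 times the lower (1.02 to 5.21), and the first replicate was the higher in 38.

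**Figure D1:**
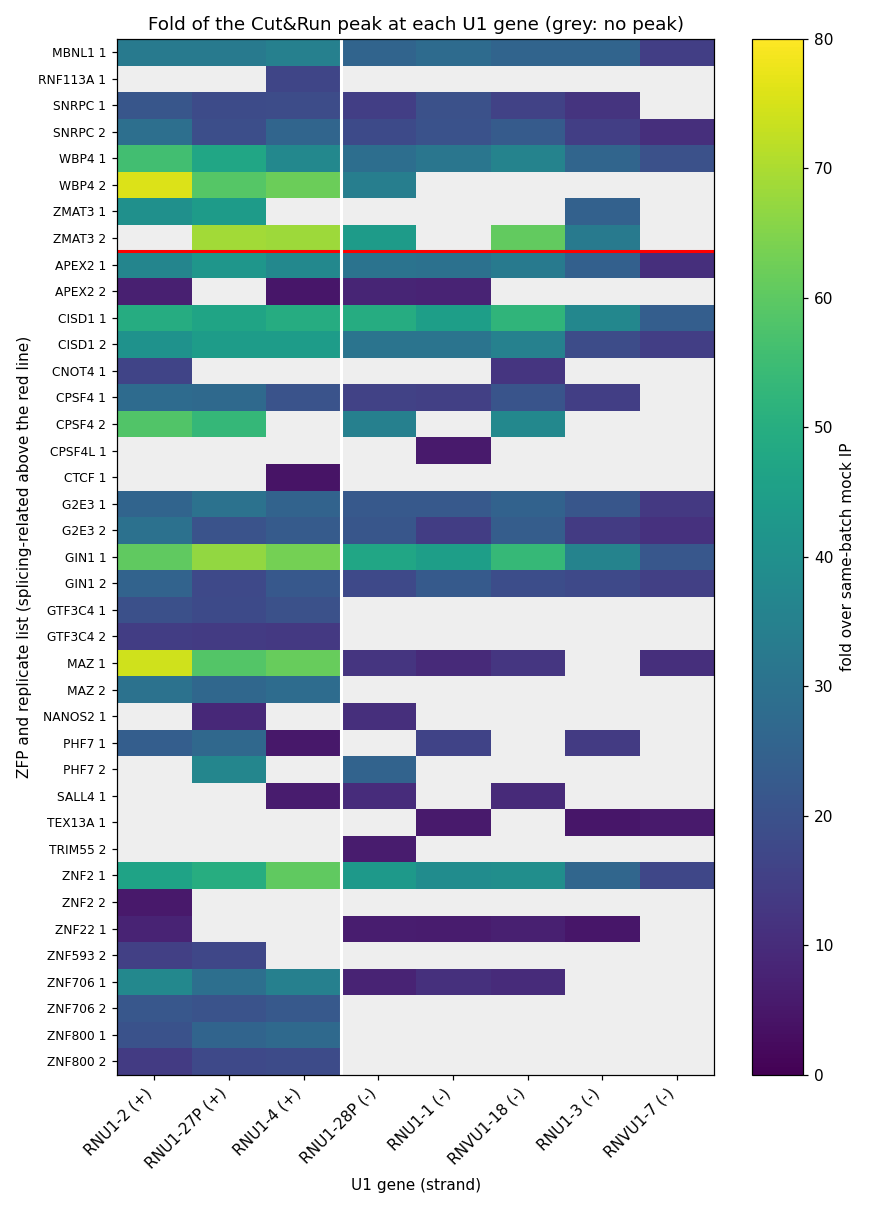
Fold of the peak over the same-batch mock IP (color) at each of the 8 U1 genes (columns, with strand) in the 39 lists with at least 1 such peak (rows: ZFP and replicate), with grey for no peak and the splicing-related ZFPs above the red line. GTF3C4, ZNF800 and the second lists of MAZ and ZNF706 had peaks at the 3 plus-strand genes left of the white line and at none of the 5 minus-strand genes.

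The peaks were high and followed the gene ends. Of the 183 peaks 174 (95.1%) had their summit, the base of highest pileup, inside the gene, at a median of 75 bp from the start (quartiles 65 and 95.75 bp, range 9 to 142 bp). The first 82 of the 164 bases held 109 of these summits and the rest held 65. The Sm site held 0 of the 174 summits, and the stretch that pairs with the splice site held 1. No bound was set on these shares. The summits are not independent, since most of the genes share their sequence and the lists of a batch share a control. Fold in the files is pileup over the control, and for peaks with the summit inside it had a median of 24.7 (5.86 to 75.9). Within their own lists these peaks ranked high, at a median of 1.09% from the top by fold, with 149 of 174 among the top 5% and 82 at rank 10 or better.

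Most peaks matched the transcribed bases almost exactly. Both edges lay within 25 bp of the gene ends in 133 peaks (72.7%), a limit chosen after the values were seen. These peaks had a median width of 175 bp (135 to 192 bp), against a gene of 164 bp. Their median left edge was 0 bp from the left end of the gene and their median right edge 11 bp past the right end in genome orientation, and the same values held for plus-strand and for minus-strand genes, so the extra bases fell after the gene on one strand and before it on the other. The peaks of RNVU1-18 followed the gene ends in 19 of 20 cases (95%), those of RNU1-27P in 26 of 29 (89.7%), those of RNU1-28P in 21 of 25 (84%) and those of RNU1-1 in 10 of 20 (50%).

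Some peaks also covered the promoter. Of the 41 peaks with the summit inside that did not follow both gene ends, 30 reached more than 25 bp upstream of the start, 4 were extended downstream alone and 7 were narrower than the gene (111 to 142 bp). The 30 came from 15 lists of 13 ZFPs. RNU1-1 to RNU1-4 supplied 23 of them (of 88 peaks with the summit inside) and the other 4 genes 7 (of 86). APEX2, an AP endonuclease, had 5 such peaks in the first list and 2 in the second, with the furthest edge 308 bp upstream. In the first list of ZNF22, all 3 peaks with the summit inside did so, with folds of 6.53 to 7.94. The peaks of that list at RNU1-1 and RNU1-3, whose summits lay outside the gene, also reached more than 25 bp upstream.

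Only 9 peaks had the summit outside the gene, and they were low (fold median 4.92, 3.97 to 6.04). Of these 6 were upstream. TEX13A had summits 146 bp upstream of RNU1-1 and 199 bp upstream of RNU1-3, both in the first list. ZNF22 had summits 164 and 266 bp upstream of the same 2 genes, also in the first list. CTCF, the insulator protein, had its single U1 peak 167 bp upstream of RNU1-4 (fold 4.07) in the first list and none in the second. The peak of APEX2 at RNU1-4 in the second list had its summit 96 bp upstream.

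**Figure D2:**
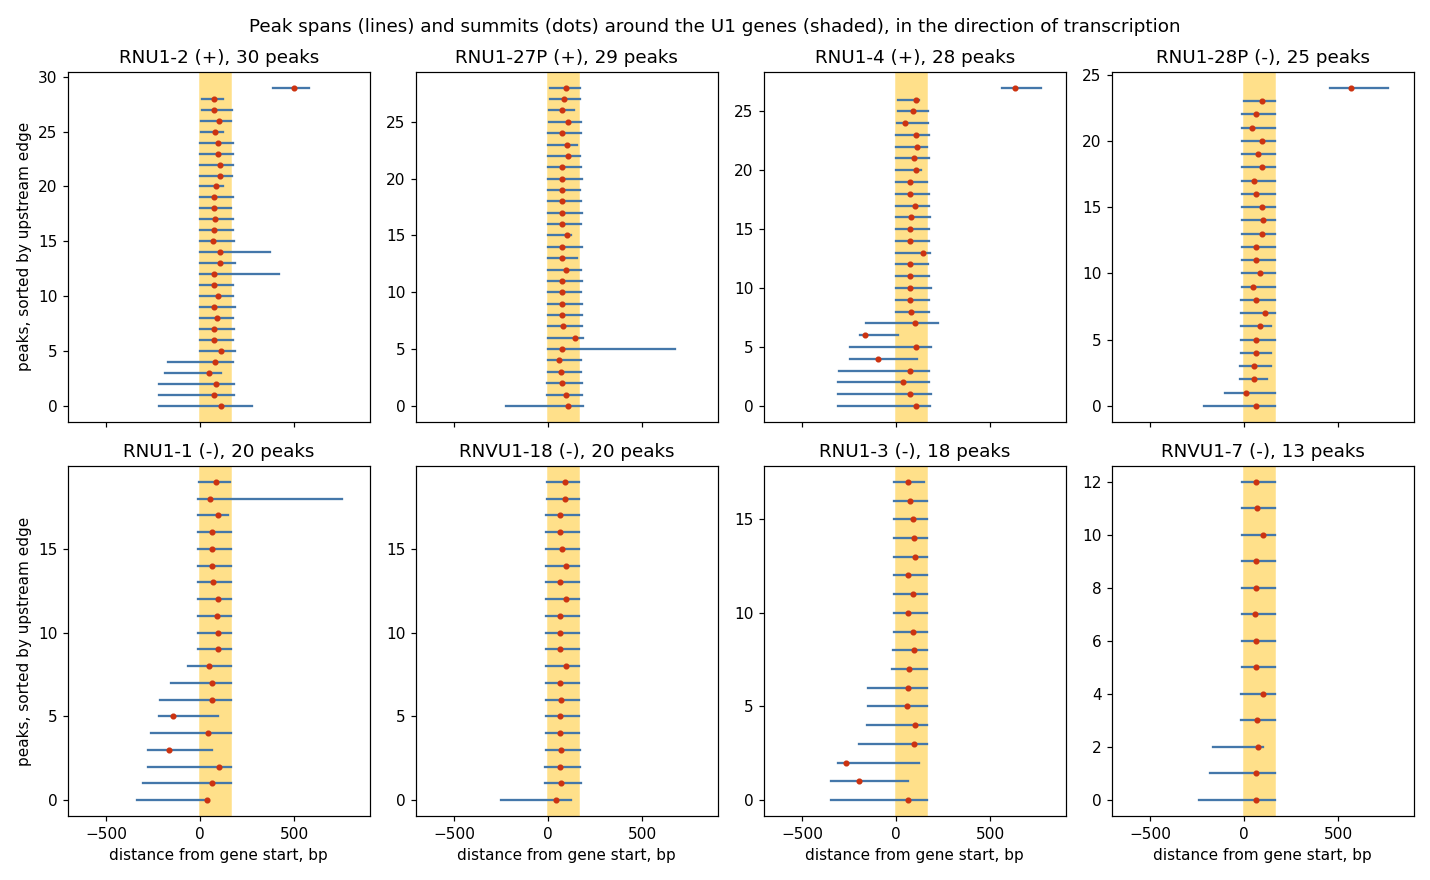
Span (line) and summit (dot) of each of the 183 peaks by distance from the gene start in bp, in the direction of transcription, in 1 panel per gene with the 164-bp gene shaded. Most lines begin and end at the shaded gene, and upstream extensions were most frequent at RNU1-1 to RNU1-4.

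Copies with the same 164 bases differed by strand. The 8 exact copies on primary chromosomes, RNVU1-29 included, comprise 4 on the plus strand (RNU1-2, RNU1-4, RNU1-27P and RNVU1-29) and 4 on the minus strand (RNU1-1, RNU1-3, RNU1-28P and RNVU1-18). The plus-strand copies had a peak in 26 to 30 lists each and the minus-strand copies in 18 to 24. Of the 37 lists with a summit in any copy, 9 had summits in plus-strand copies alone, 1 (the first list of CPSF4L) in a minus-strand copy alone and 27 in both. All 4 plus-strand copies and no minus-strand copy had a peak in 6 lists, and the opposite occurred in 0 lists. These 6 were both lists of GTF3C4, a subunit of the RNA polymerase III factor TFIIIC, both lists of ZNF800, and the second lists of MAZ and ZNF706.

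The folds were split in the same way. In the first MAZ list the 4 plus-strand copies had folds of 39.3 to 74.1 and the 3 minus-strand copies with a peak 9.58 to 12.6. In the first ZNF706 list they were 16.4 to 37.2 and 8.07 to 11.1. In neither list did the strands overlap. Every plus-strand fold exceeded every minus-strand fold in 13 of the 27 lists with both, the ranges overlapped in 11, and the reverse was true in 3 (the second list of APEX2 and the first lists of NANOS2 and SALL4).

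In 13 lists all 8 copies had a summit, and there the mean of the plus-strand folds was above that of the minus-strand folds in 12, by a median ratio of 1.22 (0.986 to 1.54). The exception was the first CISD1 list. The highest of the 8 copies was a median of 1.88 times the lowest (1.41 to 2.37), and the coefficient of variation over the copies was a median of 23.9% (11.6 to 26.9%). Between 2 replicate lists the fold of 1 gene differed by a median of 1.49 times, as given above. The pairs with identical flanks showed the split as well. Among peaks with the summit inside, RNU1-4 was higher than RNU1-3 in 14 of 14 lists with both (median ratio 1.53, 1.20 to 2.37), and RNU1-27P was higher than RNU1-28P in 16 of 20 and lower in 3 (median of RNU1-28P over RNU1-27P 0.718, 0.211 to 1.15). These are descriptions with no test, since the copies share their sequence and each list was called against a control shared within its batch. Whether the placement of reads among equal positions took part was not tested.

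**Figure D3:**
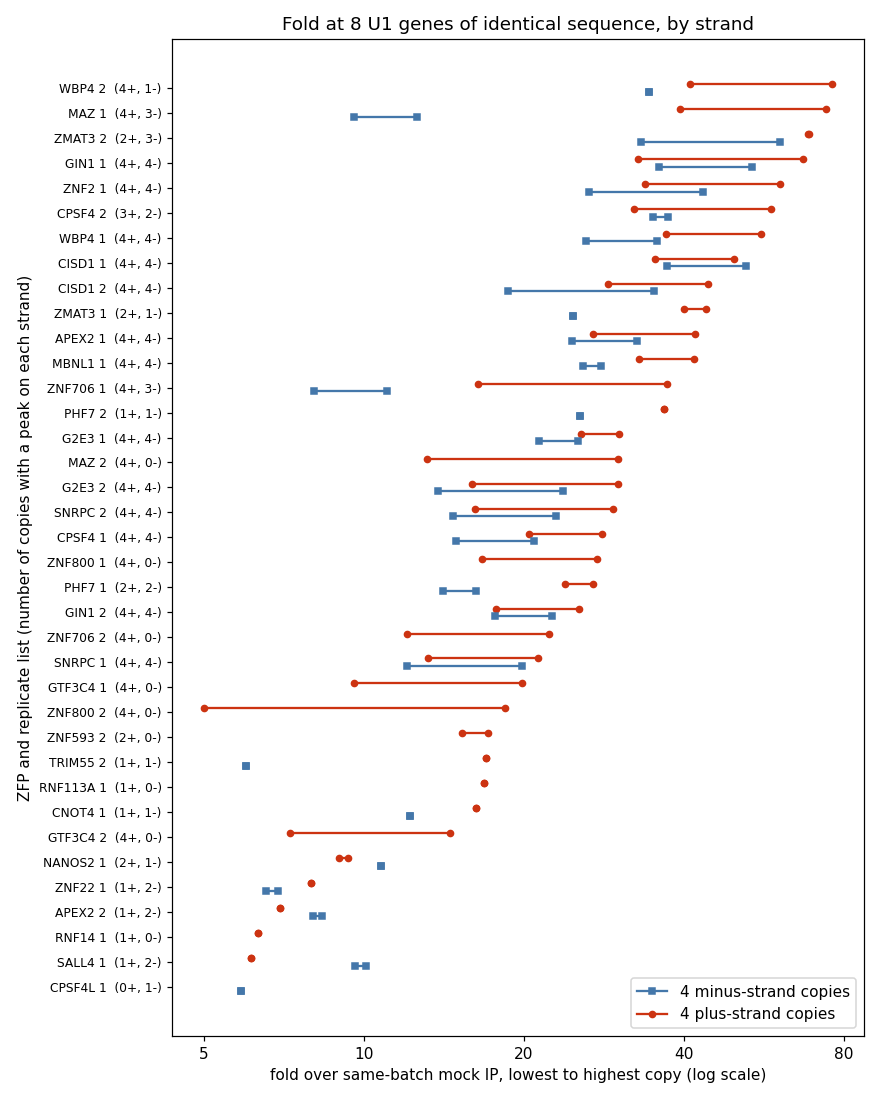
Lowest to highest fold over the same-batch mock IP (log scale) among the 4 plus-strand (red) and the 4 minus-strand (blue) U1 genes of identical sequence in each of 37 lists, with the number of copies that had a peak beside each list name. In 13 of the 27 lists with both strands the blue range lies wholly to the left of the red, in 11 the ranges overlap and in 3 the blue lies to the right, and 6 lists have 4 red copies and no blue one.

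RNVU1-7, the member with a base of its own at position 150, had lower peaks. Its fold was 14.8 at the median over its 13 lists, against 19.99 to 29.2 for the medians of the other 7 genes. In the 12 lists where other members had a summit too, RNVU1-7 was below every one of them in 11, with a median ratio to their median of 0.503 (0.302 to 0.795). The values were 23.8 against 49.5 in the first CISD1 list and 14.8 against 35.1 in the second, 13.2 against 25.2 and 11.4 against 21.5 for G2E3, and 21.7 against 53.7 and 15.02 against 18.9 for GIN1. These 3 ZFPs were the only ones with RNVU1-7 in both lists. The first MAZ list was the exception, with RNVU1-7 at 10.7 and the lowest other member at 9.58. RNVU1-7 is a minus-strand gene, and the first replicate supplied 9 of its lists.

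Whether ZFPs that act in splicing were found at U1 genes more often than the rest was asked by setting 8 of them against the other 28. The 8 were SNRPC (the U1-C protein of the U1 particle), WBP4 (a spliceosome-associated protein), RBM5 (a regulator of splice site choice), U2AF1 (the factor that recognizes the 3′ splice site), ZMAT5 (of the minor spliceosome), RNF113A (of the active spliceosome), ZMAT3 (an RNA-binding splicing regulator induced by p53) and MBNL1 (a regulator of alternative splicing). At least 1 U1 gene had a peak for 5 of the 8 and for 20 of the other 28. The mean number of U1 genes with a peak per list was 2.75 ± 3.02 (SD, n = 8 ZFPs) and 2.46 ± 2.71 (SD, n = 28), a difference of 0.29 that is far within the spread of either group. The lists of the splicing-related ZFPs were shorter, with a median of 475.5 peaks (95 to 2191) against 692 (15 to 8702). The part of list length in this comparison was not tested. RNU1-3 had a peak for 4 of 8 (50%) against 9 of 28 (32.1%) and RNU1-4 for 5 of 8 (62.5%) against 13 of 28 (46.4%). RNU1-1 went the other way, with 3 of 8 (37.5%) against 12 of 28 (42.9%).

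No U1 gene passed the test. Fisher's exact test over ZFPs, two-sided and fitted to each of the 13655 genes with a peak for at least 2 ZFPs, called 0% of them at an adjusted p under 0.05 (Benjamini-Hochberg over all genes), and 50 had an unadjusted p under 0.05. For the 8 U1 genes the exact p-values ran from 0.422 (RNU1-3) to 1, and all adjusted p-values were 1. These p-values do not show that the groups were alike.

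**Figure D4:**
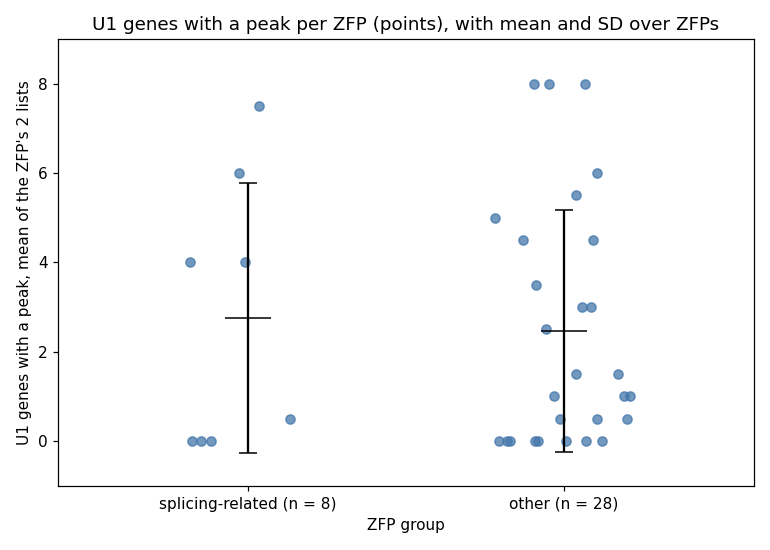
Number of the 8 U1 genes with a peak, as the mean of the 2 lists of each ZFP (points), for 8 splicing-related and 28 other ZFPs, with the group mean and SD (bars). The groups cover nearly the same range, from 0 to 7.5 and from 0 to 8.

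Within the splicing-related ZFPs, more than 1 U1 gene had a peak for SNRPC, WBP4, ZMAT3 and the first library labelled MBNL1. SNRPC and MBNL1, and also ZMAT5, CPSF4, TRIM55 and ZC3H3, have no Cut&Run entry in the summary table of the study. The study kept Cut&Run data that passed a check of agreement between replicates. Whether these ZFPs passed it is not stated by name, so their peaks may include data that did not. Among the 30 ZFPs with an entry the difference in U1 genes per list, splicing-related minus other, was -0.42. SNRPC had 7 U1 genes in both lists, where 0.249% of all genes had a peak in both. In the first SNRPC list of 1261 peaks the folds were 19.9 at RNU1-1, 21.3 at RNU1-2, 12.1 at RNU1-3, 18.6 at RNU1-4, 18.2 at RNU1-27P, 14.9 at RNU1-28P and 15.8 at RNVU1-18, with no peak at RNVU1-7. In the second list of 490 peaks they were 20.2, 29.3, 14.7, 26.0, 19.2, 18.0 and 23.0 in the same order, and 10.8 at RNVU1-7. RNU1-2 was the highest and RNU1-3 the lowest of the 7 shared genes in both lists, and the fold rank of all 15 peaks lay between 15 and 43.

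WBP4 had all 8 genes in the first list, from 19.9 at RNVU1-7 to 55.8 at RNU1-2. The second list held 4 of them, RNU1-2 at 75.9, RNU1-4 at 62.0, RNU1-27P at 58.8 and RNU1-28P at 34.3. The value at RNU1-2 was the highest of all 183 peaks. These 4 genes were present in both lists, where 0.129% of all genes were. The 4 genes of the second list had a higher fold there than in the first, where they were at 55.8, 37.2, 47.2 and 28.8.

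For ZMAT3 the first list held RNU1-2 at 40.03, RNU1-27P at 44.03 and RNU1-3 at 24.7. The second held RNU1-27P at 68.8, RNU1-4 at 68.3, RNVU1-18 at 60.7, RNU1-28P at 43.8 and RNU1-3 at 33.1. Only RNU1-27P and RNU1-3 were shared, 2 of 8, against 0.252% of all genes.

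The other 5 had U1 peaks in a single list or in none. The first library labelled MBNL1 had all 8 U1 genes in a list of 141 peaks, from 14.9 at RNVU1-7 to 34.9 at RNU1-4, where 0.233% of all genes had a peak, and no peak on MBNL1 exons. By fold these U1 peaks lay in the middle of that list, at ranks 37 to 75, or 26.2 to 53.2% from the top. The second MBNL1 list of 289 peaks had 0 U1 genes. RNF113A had RNU1-4 alone (fold 16.8), in the first list. RBM5 and the libraries labelled ZMAT5 and U2AF1 had no U1 peak in either list, in lists of 166 and 437, 95 and 2191, and 461 and 459 peaks.

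The plasmids carry the coding sequence of their ZFP, so peaks on the exons of the labelled gene give a check of the labels. Such peaks were present in 66 of 72 lists, and in 65 of them the labelled gene had the highest exon fold of the 36 ZFP genes (97.5 or more). In the second ZC3H3 list, of 15 peaks and no U1 peak, the fold on ZC3H3 exons was only 3.99, below 7.99 on an exon of ZNF22. They were absent in the first list labelled MBNL1, which held all 8 U1 genes, in the second list labelled TRIM55, which held RNU1-28P, and in both lists of the libraries labelled ZMAT5 and U2AF1. The second MBNL1 list had 5, up to a fold of 2097, and no U1 peak. Without MBNL1 the difference in U1 genes per list between the groups was 0.11, and without MBNL1, ZMAT5 and the libraries labelled U2AF1 it was 1.14. Fisher's exact test called 0 genes in both cases.

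Among the other ZFPs, 3 had all 8 U1 genes in both lists. CISD1, an iron-sulfur protein known from the outer mitochondrial membrane, had folds of 23.8 to 52.3 in the first list and 14.8 to 44.4 in the second. G2E3, a ubiquitin ligase, had 13.2 to 30.1 and 11.4 to 29.99. GIN1, named for its likeness to retrotransposon integrases, had 21.7 to 66.9 and 15.02 to 25.3. These lists reached many genes. The share of all genes with a peak was 13.6 and 4.17% for CISD1, 6.47 and 7.72% for G2E3, and 5.68 and 3.41% for GIN1. APEX2 had all 8 in the first list (10.7 to 42.0) and 4 in the second, where the 3 with the summit inside were at 6.96 to 8.35. ZNF2 had all 8 in the first list (16.9 to 60.5) and in the second only a peak beside RNU1-2, with its summit 497 bp from the start and a fold of 5.31. Of all genes, 9.74 and 8.19% had a peak in the 2 APEX2 lists, and 0.199 and 0.136% in those of ZNF2.

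CPSF4, a subunit of the cleavage and polyadenylation factor, had 7 genes at 14.9 to 27.99 in the first list and 4 at 34.9 to 58.2 in the second. GTF3C4 had RNU1-2, RNU1-4 and RNU1-27P in both lists, at 17.9 to 19.8 and 13.3 to 14.5. ZNF800 had the same 3 genes in both, at 20.3 to 27.4 and 13.9 to 18.4. Neither replicate of these 2 ZFPs had a minus-strand gene. The share of all genes with a peak was 3.25 and 1.61% for CPSF4, 0.182 and 0.144% for GTF3C4, and 0.14 and 0.305% for ZNF800. BRCA1, CNBP, LIN28B, RNF14, ZC3H3, ZFP36L1, ZNF317 and ZNF574 had none of the 8 genes in either list.

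Other U1 genes gave a way to see what the copies share. Of 135 further genes with a U1 name, those with a peak in at least 5 lists were RNVU1-29 (26 lists), RNVU1-28 (11), RNVU1-2A (8), RNVU1-31 (7) and RNVU1-30 (6). RNVU1-29, with the same 164 bases, had all 26 summits inside the gene. RNVU1-28, which differs from RNU1-1 by G37T, had 10 of 12 summits inside, and RNVU1-31, which differs by A49T and C116T, had 7 of 7 inside. At RNVU1-2A and RNVU1-30 none of the summits lay inside the gene, and all 8 and all 6 were upstream.

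The other spliceosomal snRNA genes were examined through a list of 17 genes, of which 11 had a peak in some list. Those of the list with peaks in at least 5 lists were RNU2-1 (15), RNU12 (10), RNU4-2 (8) and RNU6ATAC (7). Of the 62 peaks at the 11 genes, 30 (48.4%) had the summit inside the gene and 24 (38.7%) followed both gene ends. At the U1 genes the shares were 95.1% and 72.7%. The median fold of the 62 peaks was 6.45 and the highest was 25.6. RNU2-1, the U2 gene, had 10 of 16 summits inside, RNU12 had 7 of 10 and RNU4-2 had 6 of 8, whereas all 7 summits at RNU6ATAC, which RNA polymerase III transcribes, lay upstream. RNU2-2P, a U2 gene outside that list, was added after its values were seen. It had a peak in 21 lists (16 ZFPs), more lists than RNU1-1, RNVU1-18, RNU1-3 and RNVU1-7, with 19 of 21 summits inside the gene, 12 peaks along both gene ends and a median fold of 9.18 (2.99 to 23.3).

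Genes whose lists were most like those of RNU1-2 were named by the Jaccard index, the number of shared lists over the number of lists with either, across the 72 lists. Outside the U1 family the 5 highest were ENSG00000290578 (0.676), RNU2-2P (0.645), WDR74 (0.629), RN7SL1 (0.614) and RPS29 (0.614). ENSG00000290578 is a lncRNA gene whose intron holds RNVU1-29. WDR74 overlaps RNU2-2P, a U2 snRNA gene, and RPS29 overlaps RN7SL1, the RNA of the signal recognition particle, so the 5 genes stand for 3 places. RN7SL1 had a peak in 41 lists, more than the 30 of RNU1-2, the U1 gene with the most. Among the members RNU1-2 was closest to RNU1-27P (0.788, 26 shared lists) and to RNU1-4 (0.706, 24 shared lists), the other plus-strand genes.

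The genes of proteins that make or carry U1 RNA were examined for a peak within 500 bp of the gene start. Of the 10 genes of U1 particle proteins 7 had a peak for at least 1 ZFP (median 3 ZFPs, 0 to 6), and SNRPC, SNRPB and SNRPE had none. Of the 8 genes of factors for snRNA transcription 8 had one (median 3.5 ZFPs, 1 to 6), and of the 4 Integrator genes, whose complex cuts the 3′ end of snRNA, 4 had one (median 2.5 ZFPs, 1 to 7). For all 20046 protein-coding genes it was 8732 (43.6%, median 0 ZFPs). Each of these genes had such a peak in at most 7 lists, against 13 to 30 lists at the 8 U1 genes. The windows differ, since for U1 the whole gene and 500 bp around it were used.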

How the data were processed

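Reads had been trimmed by the authors with Trimmomatic (0.36) and aligned to hg38 with bowtie2 (2.3.5.1, very-sensitive-local preset, fragments of 10 to 700 bp). After removal of PCR duplicates with Picard (0.1.8), the authors called narrow peaks with MACS2 (2.2.7.1) in every library, with the mock IP of its batch as the control. The methods state a depth of about 10M paired-end reads per sample, but neither batch nor read total is stated for single libraries, so no counting interval was set on a fold. Each deposited list gives for each peak a fold, which is the ratio of pileup to control, a −log10 p-value, a −log10 q-value and the summit; folds are printed as deposited.

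Here, peaks were joined to GENCODE 44 genes with a window of 500 bp, and distances follow the strand of the gene. The 8 U1 genes, the splicing-related ZFPs and all gene lists were chosen with earlier results of these data known. For the test a ZFP counted once, as present if either list had a peak; Fisher's exact test was run on genes with a peak for at least 2 ZFPs and adjusted over all of them (scipy 1.17.1). The test and the join were checked on simulated data. Genes outside the 8 were named if they were U1 genes, or snRNA genes of a list of 17, with a peak in at least 5 lists, or among the 5 with the highest Jaccard index to the member found in most lists and over 2000 bp from any member. Sequences were read from hg38, because the RefSeq promoter table held 0 of the 8 genes. The mock IP samples entered only as the authors' control. Alternatives covered the window, the summit rule, the q threshold, the number of top peaks, the set of splicing-related ZFPs, the minimum of ZFPs tested and each replicate left out.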

Additional observations from a re-analysis of the deposited data

How the results depend on the processing

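Fisher's exact test called 0 genes under every alternative run. The difference in U1 genes per list, splicing-related minus other ZFPs, was 0.29 and moved without keeping its sign: it was -0.018 when both replicates had to have the peak, -0.23 for 6 spliceosome ZFPs alone, -0.39 without SNRPC and -0.42 among the 30 ZFPs with a Cut&Run entry in the summary table, and 0.45 with the 500 peaks of lowest q, 0.68 without the libraries labelled U2AF1 and 0.70 with CPSF4 added. Chosen after the data were seen, leaving out MBNL1 gave 0.11, and leaving out MBNL1, ZMAT5 and the libraries labelled U2AF1 gave 1.14. Leaving out each replicate gave 0.23 to 0.34. The number of ZFPs with any U1 peak was 25 and fell to 14 when both replicates had to have one, and leaving out each replicate gave 16 to 23. The causes were not tested. No paired analysis was possible because both lists of a ZFP were joined into 1 unit before the test and the replicate number has no meaning across ZFPs in the labels. Depth per library is unknown, so a missing peak does not show that the protein was absent. Folds at the 7 identical genes cannot be assigned to single copies.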

Other observations

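The exact copy of the U1 sequence on the unlocalized contig of chromosome 1, for which GENCODE 44 names no gene there, had a peak in 20 lists, the same number as RNU1-1 and RNVU1-18. It lies on the minus strand of the contig.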
